A study of Mus musculus with 18 samples.

Results

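The small subunit of the ribosome, the 40S subunit, is built of 1 ribosomal RNA and a set of proteins, and 27 of the genes that serve it were followed here through early red blood cell formation in mouse bone marrow. They are 26 genes of small-subunit ribosomal proteins, from Rpsa to Rps29 and Fau, and Rack1, the gene of a scaffold protein that sits on the head of the subunit. They were taken from a fixed list of symbols and not by their values, though earlier results of these data were known. They are 27 of the 53458 genes in the data. All 27 were among the 21565 genes that passed the filter on low counts. The small subunit binds the messenger RNA, scans it for the start codon and reads the codons, and a cell makes more of it when it prepares to grow and divide. The messenger RNAs of ribosomal proteins usually begin with a C followed by a run of C and T (a TOP sequence), through which their translation is tied to mTOR signalling. Red cell precursors depend on these genes in particular: loss of a single copy of one of several of them causes Diamond-Blackfan anemia in people, a failure to form red cells.

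RNA sequencing was done on 3 populations of C57BL/6 bone marrow, each from Ptbp1 fl/fl mice (WT) and Ptbp1 KO mice (KO), with 3 libraries in each of the 6 groups. The populations were sorted from lineage-negative, c-kit+ cells. Hematopoietic stem cells (HSC) were Sca-1+ and CD150+ without CD48. PreMegE cells, which can form megakaryocytes and red cells, were CD150+ and lacked Sca-1, CD41, FcgRII/III and CD105, and preCFU-E cells, which are committed to red cells, differed from them by carrying CD105. PTBP1 is an RNA-binding protein that controls splicing. The WT animals carry the floxed allele, and neither the Cre that deletes it nor the age or sex of the animals is named in the labels. Libraries held 15945753 to 29209728 estimated reads, of which 12.7% to 33.6% came from mitochondrial ribosomal RNA. Ptbp1 was at 221, 208 and 196 CPM (a gene's reads scaled to a common library size with edgeR's TMM factors) in the 3 WT and 90.3, 108 and 96.3 in the 3 KO libraries of HSC, at 595, 697 and 787 against 189, 187 and 232 in preMegE, and at 1116, 1272 and 1345 against 298, 303 and 318 in preCFU-E. Every KO library was thus below every WT library of its population. The HSC gene Hlf was at 407 to 618 CPM in HSC and 5.2 to 9.79 in preCFU-E, and the erythroid gene Klf1 at 0.284 to 1.42 in HSC, 43.1 to 75.7 in preMegE and 171 to 226 in preCFU-E. The HSC libraries stand apart in genes of the sex chromosomes. They held 6434 to 8617 CPM of Xist against at most 1.09 in the other 12, and 0.318 to 1.26 CPM of the Y-linked Ddx3y against 45.2 to 68.7, so sex and cell type cannot be told apart wherever HSC are compared with the progenitors.

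Sequences at the start of these genes are shown first, because a TOP sequence is what their messenger RNAs are known for. The windows below run from 10 bases before to 15 bases after the RefSeq start on GRCm38.p6, 5′ to 3′ on the strand of the gene, with the longest run of C and T in capitals. They belong to the 3 genes that rose most and the 3 that rose least from HSC to preMegE, with both entries of Rps21.
Rps2 (chr17:24720053-24720077, + strand): gtcgagatctcgcgCTTCTTggagc
Rack1 (chr11:48800350-48800374, + strand): gccgCTCTTTCTTTTTCTCCacagg
Rps4x (chrX:102189377-102189401, - strand): gctgggcggagcaacccaggCTCCa
Rps23 (chr13:90923112-90923136, + strand): cggctgggcggggCTTCCCgcaatg
Rps12 (chr10:23787195-23787219, - strand): tcatgcggccaccgccggCCTTTTC
Rps21, first entry (chr2:180257369-180257393, + strand): aggacccgCCCTCCTgcccaatagt
Rps21, second entry (chr2:180257439-180257463, + strand): agtgagcaggtaggCCTCggtgcgg
Rack1 carries a run of 16 bases that spans the start, and Rps4x one of 4 bases, although both were among the 3 largest rises. Runs were measured within the window only, and that of Rps12 ends at the window's last base. A short run here therefore does not show that a TOP sequence is absent. The table of RefSeq starts held 23 of the 27 genes, with 26 entries. A run of at least 6 C or T was in 13 of the 26 entries (50%) and in 24.4% of all 32851 entries in the same window. A run of at least 8 was in 8 of them (30.8%), in Fau, Rack1, Rps6, Rps9, Rps10, Rps15a, Rps18 and Rps26, against 9.49% of all entries. In the 300 bases from 250 before to 50 after the start, CCGGAAG, a site of the form that ETS factors bind, was found on either strand in 11 of the 26 entries (42.3%), and in 8.86% of all entries. AAGATGGC, the core bound by YY1, was in 2 entries (7.69%), those of Fau and Rps15a, and in 2.75% of all. The core bound by NRF1 was also searched for, and was in 0 of the 26 entries and in 0.971% of all. These are matches of letters and not measured binding sites.

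All 27 genes had a higher mean level in WT preMegE than in WT HSC. EdgeR's quasi-likelihood test over all genes called 25 of them higher at an adjusted p under 0.05, where 25.5% of all genes tested were called higher. None of the 27 was called lower. The median rise was 1.60 on the log2 scale, or 3.02-fold, while the median over all genes tested was -0.43. Summed over the 27 genes, the level was 3809 ± 127 CPM in WT HSC and 13221 ± 715 in WT preMegE (SD, n = 3). In 25 of the 27 genes, every WT preMegE library lay above every WT HSC library, which was so for 29.1% of all genes. The same 25 genes were lower in all 6 HSC libraries than in any of the 12 progenitor libraries. The share of all genes with that pattern was not counted, so this does not set the 27 genes apart. In bulk RNA, fewer cells of a type and less RNA per cell cannot be told apart, and levels are relative to the rest of the RNA in the library.

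**Figure D1:**
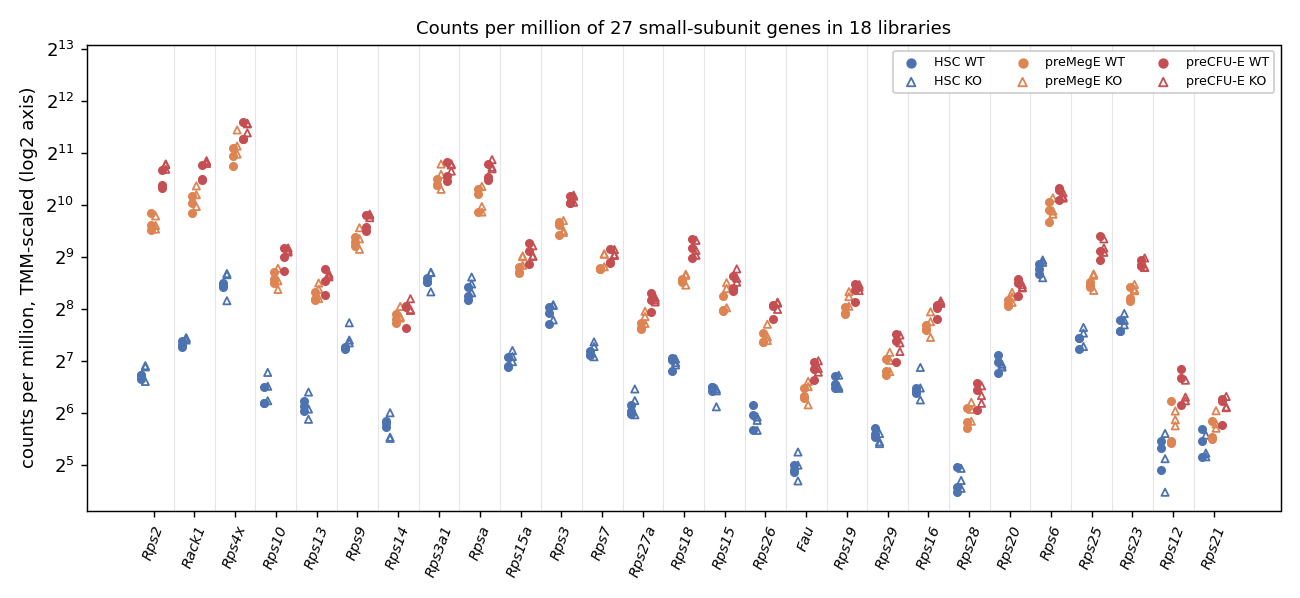
Level of each of the 27 genes in all 18 libraries, in TMM-scaled CPM on a log2 axis. Genes are ordered by their rise from WT HSC to WT preMegE; filled circles are WT and open triangles KO. For all genes but Rps12 and Rps21, the 6 HSC libraries lie below the 12 progenitor libraries.

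Rps2, whose protein lines the channel by which messenger RNA enters the subunit, rose most. It was at 107, 107 and 101 CPM in the WT HSC libraries, at 732, 786 and 924 in preMegE and at 1279, 1624 and 1340.3 in preCFU-E. The groups do not overlap at either step. Its change from HSC to preMegE was 2.96 (log2, SE 0.13, edgeR adjusted p 1.37e-12), a 7.78-fold rise. Rack1, which links the ribosome to protein kinase C and to quality control of stalled ribosomes, was at 155, 159 and 166 CPM in WT HSC, 927, 1048 and 1152 in preMegE and 1422, 1753 and 1455 in preCFU-E. It rose by 2.70 (SE 0.13, adjusted p 2.06e-12), or 6.5-fold, and so moved with the ribosomal proteins although it is not one by name. Rps4x, the gene of this set on the X chromosome, was at 361, 352 and 342 CPM in WT HSC, 1735, 1982 and 2194 in preMegE and 2458, 3088 and 2484 in preCFU-E. Its rise of 2.49 (SE 0.15, adjusted p 1.02e-10) coincides with the change in Xist, and whether sex has a part in it was not tested.

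Rps21, a small protein of the body of the subunit, had the smallest change of the set at this step. It was at 44.1, 51.5 and 35.9 CPM in WT HSC and at 57.5, 45.3 and 46.6 in WT preMegE, and the 2 groups overlap. The change was 0.18 (log2, 95% confidence interval -0.18 to 0.55, adjusted p 0.375), and its sign is negative when libraries are scaled by their size alone (-0.11). With length-scaled counts it was at 0.47 and passed the test (edgeR adjusted p 0.0423). The upper end of that interval lies below the lower end of the interval of every other gene of the set except Rps12 and Rps23. Rps21 has 1 near-identical copy in the annotation, with no reads, and its coding transcript held 97.9% to 99.8% of its TPM (Salmon's abundance of a transcript, corrected for its length) in every library. Rps12, a protein of the beak of the head, was at 40.04, 44.1 and 30.02 CPM in WT HSC and 75.1, 44.1 and 42.8 in WT preMegE, with a change of 0.50 (SE 0.25, adjusted p 0.0957). One library, preMegE WT 1, stands above the other 2. Rps12 passed the test in 4 of the alternatives, among them length-scaled counts (0.85, edgeR adjusted p 0.0139) and protein-coding transcripts alone (0.84, adjusted p 0.0265). Rps23, which helps to keep decoding accurate, had the smallest rise among the called genes, from 192, 220.2 and 191 to 284, 344 and 297 CPM (0.62, SE 0.11, adjusted p 0.000155). The call of Rps23 was lost with length-scaled counts (0.19, adjusted p 0.285) and over genes with a mean of at least 50 counts (0.22, adjusted p 0.0794), while protein-coding transcripts alone gave 1.83.

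**Figure D2:**
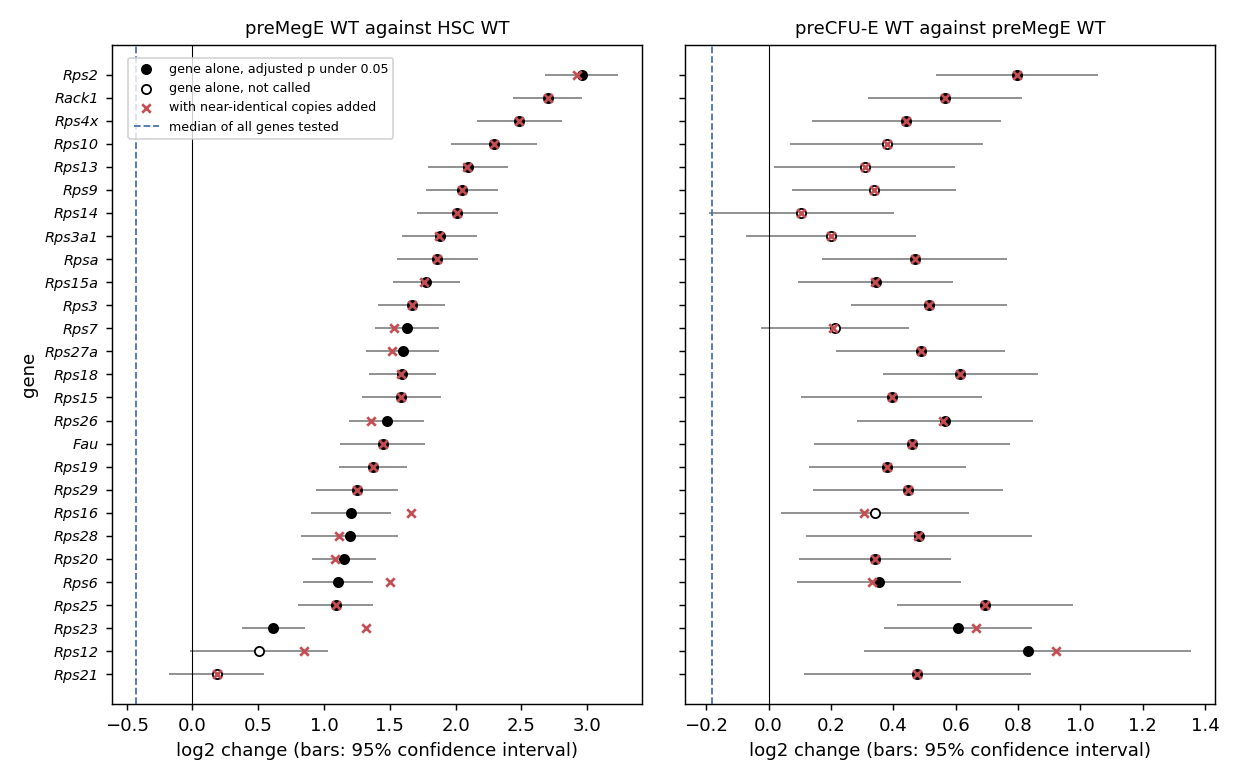
Log2 change of each gene from WT HSC to WT preMegE (left) and from WT preMegE to WT preCFU-E (right), with 95% confidence intervals. Filled points have an edgeR adjusted p under 0.05, crosses give the change with near-identical copies added, and dashed lines mark the median of all genes tested. At the first step Rps21, Rps12 and Rps23 sit apart at the bottom, and the crosses of Rps23, Rps16, Rps6 and Rps12 lie to the right of their points.

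By place on the subunit, 12 of 13 genes of the head were called at this step, with a median of 1.37, and 13 of 14 of the body and platform, with a median of 1.82. The head includes Rps3 (1.67), which contacts the entering messenger RNA; Rps10 (2.29) and Rps20 (1.15), which are marked with ubiquitin when ribosomes collide; Rps25 (1.09), used by viral internal entry sites; and Rps15, Rps16, Rps18, Rps19, Rps27a, Rps28 and Rps29, at 1.20 to 1.60. The body and platform include Rpsa (1.86), also known as a laminin receptor; Rps6 (1.11), the substrate of S6 kinase; Rps26 (1.48), at the exit of the messenger RNA; Rps14 (2.01), known from the 5q- syndrome; and Rps3a1, Rps7, Rps9, Rps13 and Rps15a, at 1.63 to 2.09. Genes that are mutated in Diamond-Blackfan anemia rose with the rest: all 7 that are in the set (Rps7, Rps10, Rps15a, Rps19, Rps26, Rps28 and Rps29) were called, from 1.20 to 2.29. Rps27a and Fau, which encode a ribosomal protein fused to ubiquitin and to a ubiquitin-like protein, rose by 1.60 and 1.45.

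Genes of related function were called at this step as well. All 8 small-subunit genes outside the set were called higher (median 1.40), as were 45 of 47 large-subunit genes (median 1.33) and 48 of 55 assembly factors of the small subunit (median 1.24). Of 18 genes that regulate TOP messenger RNAs, 14 were called higher and 1 lower (median 0.84), and of 17 tested for ubiquitylation and rescue of the 40S subunit, 11 higher and 1 lower (median 0.68). At this step the median over all genes was -0.43 with TMM factors and -0.72 with library size alone. Over genes with a mean of at least 50 counts, again with TMM factors, it was -0.03. Relative to these medians, the median gene of the set stood 2.03, 2.04 and 1.23 higher. A change of scaling shifts all genes of a library alike, so the gap could hardly differ between these scalings. It was smaller under that filter, and was 1.35 with protein-coding transcripts alone.

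From preMegE to preCFU-E, all 27 genes had a positive change, of which 20 were called, where 15.6% of all genes tested were called higher. The median was 0.45 (log2), or 1.36-fold, against -0.18 over all genes tested. Groups did not overlap for 20 of the 27, against 25.6% of all genes. The call is close to its threshold: 8 of the 20 had an adjusted p under 0.01 (Rps2, Rps3, Rps18, Rps23, Rps25, Rps26, Rps27a and Rack1) and 12 between 0.01 and 0.05. Scaled by library size alone, 18 of the 27 were positive, 1 was called (Rps2) and the median was 0.09, with the median of all genes at -0.53, and 7 were called without the filter or at a mean of at least 50 counts and 5 with protein-coding transcripts alone. Leaving out 1 library gave 6 to 23 calls: 10 without HSC WT 1 or HSC KO 1, 8 without preMegE WT 1, 10 without preMegE WT 2 or WT 3, 6 and 7 without preCFU-E WT 1 and WT 2, and 9 without any 1 of the preCFU-E KO libraries.

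Rps12 had the largest change at this step, from 75.1, 44.1 and 42.8 CPM in WT preMegE to 115, 102 and 71.3 in WT preCFU-E (0.83, SE 0.25, adjusted p 0.017), though the lowest preCFU-E library lies below the highest preMegE library. Rps2 rose again, by 0.80 (SE 0.12, adjusted p 4.68e-05), and was called under each of the alternatives tried. Rps25 rose from 345, 369.6 and 351 to 557, 675 and 492 CPM (0.69, SE 0.14, adjusted p 0.000496), without overlap. At the other end, Rps14 was at 241, 224 and 212 CPM in preMegE and 263, 265 and 199 in preCFU-E. Its groups overlap, and the change was 0.11 (95% interval -0.19 to 0.40, adjusted p 0.642). Rps3a1, at 1333, 1336 and 1449 against 1506, 1807 and 1417 CPM (0.20, adjusted p 0.297), and Rps7, at 443, 436 and 435 against 477, 573 and 473 CPM (0.21, adjusted p 0.192), did not pass the test either. The groups overlap for Rps3a1 and not for Rps7. Scaled by library size alone, these 3 genes have a negative sign (-0.25, -0.17 and -0.16), and so do 6 others, at -0.05 to -0.02. Those are Rps9, Rps13 and Rps16, and Rps6, Rps15a and Rps20, which were among the 20 called with TMM factors. Rps9, Rps10, Rps13 and Rps16 were the other genes without a call, at 0.31 to 0.38. Among related genes, 37 of 47 large-subunit genes (median 0.51) and 51 of 55 assembly factors (median 1.06) were called higher.

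The order of levels within the set was read from TPM, which allows for transcript length. It was summed over all transcripts of a gene, coding or not. In WT HSC, Rps6 was first with 915, 876 and 811 TPM in the 3 libraries and Rps25 second with 622, 666 and 671, while Rps12 (115, 158 and 95.5) and Rps20 (139, 159 and 153) were last. In WT preMegE, Rps4x (1877, 2921 and 3109 TPM) and Rps3a1 (1422, 1953 and 2036) led, and Rps12 (181, 148 and 131) and Rps16 (272, 361 and 344) were last. WT preCFU-E had the same 2 genes at each end, with 2594, 3426 and 2622 TPM for Rps4x, 1570.3, 1986 and 1482 for Rps3a1, 268, 275 and 179 for Rps12 and 394, 384 and 328 for Rps16. The highest gene stood 7.07 times above the lowest in WT HSC, 17.2 times in preMegE and 11.97 times in preCFU-E. Neighbours in the order often overlap: Rps6 and Rps25 do not in WT HSC, but Rps12 and Rps20 do, as do Rps4x and Rps3a1 in preMegE. These places depend on how Salmon divided reads: near-identical copies, described below, took 57.5% to 70.1% of the reads of Rps12 and 50.2% to 52.5% of those of Rps16 in WT preMegE. They also depend on which transcripts are counted. Transcripts annotated as retaining an intron held a mean of 80.7% of the TPM of Rps20 in WT HSC. For Rps16 they held 73.4% in WT HSC, 42.3% in WT preMegE and 48.9% in WT preCFU-E. Shares within the set differed between the populations. As a share of the summed TPM of the 27 genes, Rps2 went from 2.1 ± 0.117% in WT HSC to 4.75 ± 0.462% in preMegE and 6.17 ± 0.317% in preCFU-E (SD, n = 3). Rps4x went from 5.7 ± 0.326% to 10.6 ± 0.984% and 10.7 ± 0.456%, and Rack1 from 2.09 ± 0.387% to 4.15 ± 0.0364% and 4.38 ± 0.0351%. Rps23 went from 6.65 ± 0.404% to 2.15 ± 0.334% and 2.48 ± 0.242%, and Rps21 from 4.29 ± 0.741% to 1.7 ± 0.153% and 1.7 ± 0.105%. For Rps23 the share of reads given to copies was 4.57% to 5.80% in WT HSC and 37.5% to 46.5% in WT preMegE. The TPM of Rps23 also includes non-coding transcripts. Its coding transcript held a mean of 15.6% of it in WT HSC and 81.0% in WT preMegE. Counted by protein-coding transcripts alone, Rps23 rose by 1.83 (log2) at the first step, so its lower share is not that of its coding transcript. These shares are a description and were not tested.

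The spread between replicates was small for most of the set. The median coefficient of variation of CPM over the 27 genes was 6.92% in WT HSC, 12.6% in KO HSC, 7.12% and 11.7% in WT and KO preMegE, and 12.01% and 5.18% in WT and KO preCFU-E. Rps12 had the largest spread in 5 of the 6 groups, 15.1% to 37.5%; in KO preMegE it was Rpsa, with 18.6%. In KO HSC, Rps12 was at 48.8, 34.9 and 22.3 CPM.

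The values of Rps12 and Rps23 depend on how reads shared with copies of these genes are counted. Ribosomal protein genes have many processed pseudogenes, which are intronless copies of the messenger RNA, and Salmon divides a read among all transcripts that it fits. A search of the annotated transcripts found 147 copies of 24 of the 27 genes, with at least 95% identity over at least 80% of the coding sequence. Of these, 136 are annotated as pseudogenes of any kind. Rps3, Rps19 and Rack1 had none by this rule. The annotation does name 13 pseudogenes of Rps19, with 0.27% to 5.47% of the reads of gene and pseudogenes together. For each gene the longest annotated coding sequence was searched, 636 bases for Rps19, and copies that match less than 80% of it were not counted. For 19 of the genes the copies took at most 15.8% of the reads of gene and copies together in any library, the most being for Rps26 in HSC. The other 5 had the highest shares, and stretches of 3 of them are shown here because no base, or 1 base, tells gene from copy in them. The first 60 coding bases of Rps6 and Rps23 are the same, base for base, in their copies Rps6-ps4 (chr2:75191073-75191822, - strand) and Rps23-ps1 (chr3:37714740-37715164, + strand). Rps20 and its copy Gm4332 (chr3:119709516-119709861, + strand) differ over the aligned 346 bases at 1 position, G324A, counted from the A of the start codon and given as gene then copy; it is in capitals in bases 304 to 344 below.
Rps6 and Rps6-ps4: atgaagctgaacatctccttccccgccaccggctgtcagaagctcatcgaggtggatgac
Rps23 and Rps23-ps1: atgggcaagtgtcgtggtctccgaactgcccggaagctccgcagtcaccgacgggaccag
Rps20: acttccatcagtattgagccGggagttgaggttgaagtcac
Gm4332: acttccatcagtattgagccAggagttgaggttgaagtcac
Over the whole coding sequence, Rps6-ps4 matched 747 of 747 bases of Rps6 and Rps16-ps2 438 of 438 of Rps16, without a difference, and Rps23-ps1 matched the first 425 of 429 bases of Rps23 without a difference.

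The reads that Salmon gave to these copies differ sharply between HSC and the progenitors. Rps6-ps4 had 0 reads in each of the 6 HSC libraries and 3639 to 9139 in each of the 12 progenitor libraries. Rps23-ps1 had 0, 0 and 0 reads in WT HSC and 64, 186 and 122 in KO HSC, against 3255 to 8850 in the progenitors. As a result the copies held 4.57% to 9.74% of the reads of Rps23 and its copies in HSC and 37.5% to 47.4% in the progenitors. For Rps6 the shares were 0.148% to 0.292% and 18.04% to 30.5%, and for Rps16 29.2% to 37.9% and 47.5% to 53.01%. Rps12 had the highest shares, 50.6% to 67.6% in HSC and 57.5% to 70.2% in the progenitors. Rps20 was the reverse, with 13.2% to 17.2% in HSC and 9.07% to 11.4% in the progenitors. WT and KO libraries of a population overlap for each of the 5 genes.

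**Figure D3:**
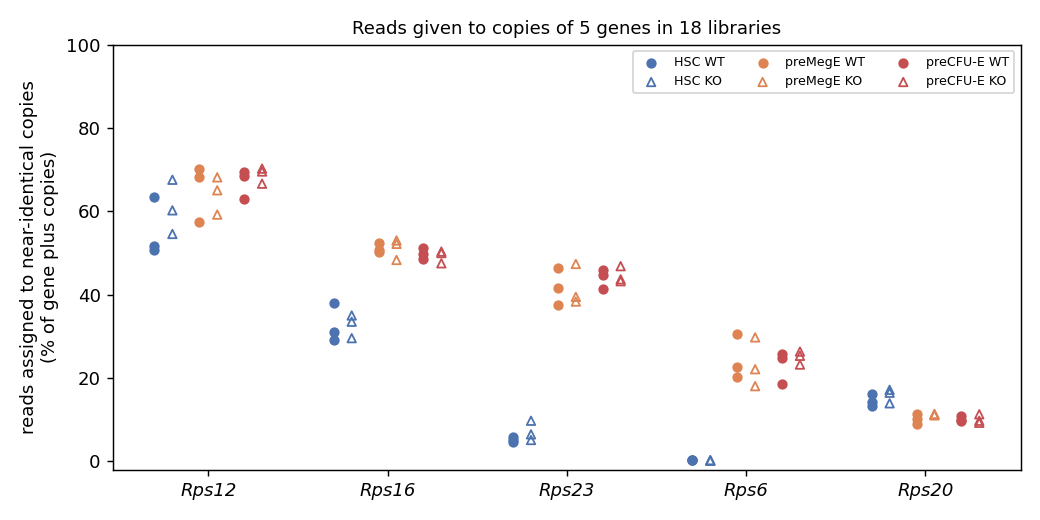
Share of reads assigned to near-identical copies, as a percent of the reads of gene and copies together, for 5 genes in all 18 libraries. Filled circles are WT and open triangles KO. For Rps23 and Rps6 the 6 HSC libraries lie at 0.148% to 9.74% and the 12 progenitor libraries at 18.04% to 47.4%.

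Counting the copies with their gene, an alternative chosen after seeing the data, changed the size of the first step most for 4 of these 5 genes. Rps23 rose by 1.32 in place of 0.62 (log2, SE 0.11, adjusted p 9.65e-09), Rps16 by 1.66 in place of 1.21, and Rps6 by 1.51 in place of 1.11. Rps12 changed by 0.85 (SE 0.16, adjusted p 0.000149) and passed the test, which made 26 of 27 genes called. Rps20 was at 1.08 in place of 1.15, and Rps26, which moved most among the other genes, at 1.36 in place of 1.48. Rps21 stayed at 0.18 and was then the only gene of the set without a call. At the second step 19 were called with the copies added. Whether the copies are transcribed, or receive reads of their parent genes, was not tested: the files hold the divided reads only.

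Salmon also divided reads among the transcripts of each gene, and here too HSC differed from the progenitors. Transcript usage could be tested in 16 of the 27 genes, those with at least 2 transcripts above 5% of the gene's TPM. From WT HSC to WT preMegE it changed in 5 of the 16: Rps7, Rps18, Rps19, Rps23 and Rpsa, where 9.91% of all 9364 genes tested were called (edgeR diffSpliceDGE, Simes adjusted p). From preMegE to preCFU-E none of the 16 was called, with 0 at an unadjusted p under 0.05, and 0.150% of all genes were. In Rps19, the gene most often mutated in Diamond-Blackfan anemia, the coding transcript Rps19-210 held 0.478, 0 and 0% of the gene's TPM in WT HSC and 52.6, 47.7 and 50.9% in WT preMegE (adjusted p 9.26e-11). Rps19-206, annotated as retaining an intron, held 35.8, 39.8 and 29.6% and 1.68, 0.397 and 0.896%. Rps18-209, annotated as a processed transcript without a coding sequence, held 46.3, 67.5 and 21.3% of Rps18 in WT HSC and 0% in all 12 progenitor libraries (adjusted p 5.63e-10).

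In Rps23 the non-coding Rps23-203 held 80.1, 79.6 and 81.04% in WT HSC and 12.8, 23.6 and 4.44% in WT preMegE, with the coding Rps23-201 making up most of the rest (adjusted p 0.00445). In Rpsa, whose leading transcript in HSC is annotated as a target of nonsense-mediated decay, the coding Rpsa-204 held 11.9, 6.55 and 9.67% in WT HSC and 42.7, 46.7 and 54.9% in WT preMegE (adjusted p 0.000128). In Rps7 the coding Rps7-203 held 10.01, 12.9 and 13.4% and 45.5, 45.8 and 44.9% (adjusted p 0.0181). In KO libraries Rps19-210 held 1.51, 0 and 0% in HSC and 45.03, 46.1 and 55.8% in preMegE, and Rps19-206 held 35.6, 10.6 and 35.4% in HSC, so that HSC KO 2 lies below the other HSC libraries for Rps19-206. With the replicate number as a block, Rps18 and Rps19 kept their calls and Rps7, Rps23 and Rpsa lost theirs. Rps7 also lost its call without any 1 of the WT preMegE libraries or HSC WT 1. Each group's values come from estimated abundances and not from reads over splice junctions. Values of exactly 0 come from that estimation.

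**Figure D4:**
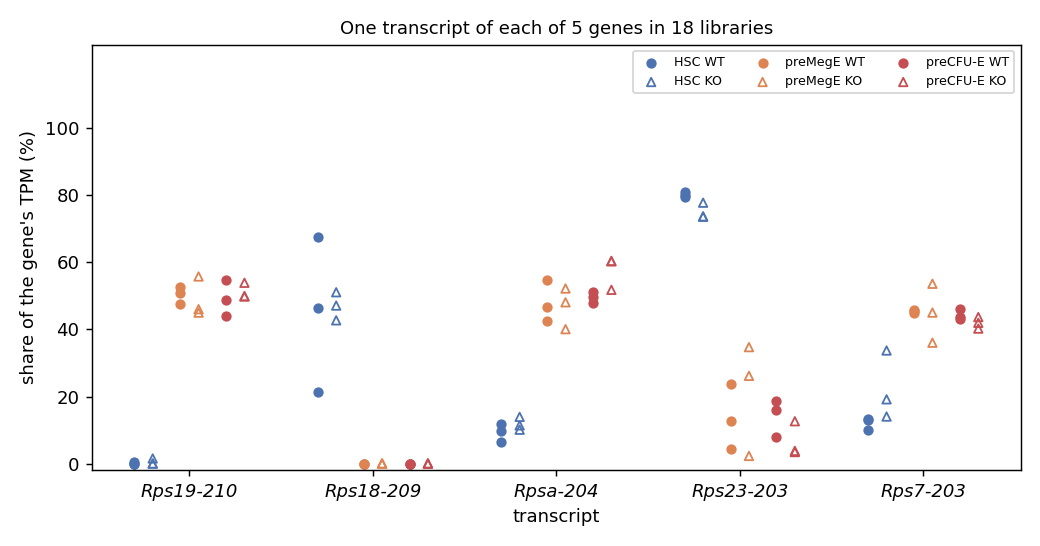
Share of the gene's TPM held by 1 transcript of each of the 5 genes whose usage changed from WT HSC to WT preMegE, in all 18 libraries. Filled circles are WT and open triangles KO. For each transcript the 6 HSC libraries lie apart from the 12 progenitor libraries, below them for Rps19-210, Rpsa-204 and Rps7-203 and above them for Rps18-209 and Rps23-203.

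Loss of Ptbp1 left no called change in any of the 27 genes. In HSC, edgeR called 0 of 27, with 0 at an unadjusted p under 0.05, where 0.844% of all genes were called in either direction. In preMegE it called 0 of 27, with 1 at an unadjusted p under 0.05, where 0.0603% of all genes were called. In preCFU-E it called 0 of 27, again with 1 at an unadjusted p under 0.05, where 0.153% of all genes were called. DESeq2 and limma-voom also called none in any population. With protein-coding transcripts alone, Rps23 was called in HSC (0.47, edgeR adjusted p 0.0473). The median log2 changes in these 3 populations were 0.06, 0.13 and 0.08, against 0.01, 0.01 and -0.00 over all genes. Of the 27 genes, 18, 23 and 21 were positive, where 51%, 51.3% and 47.8% of all genes tested were. In preCFU-E this direction depends on the scaling: with library size alone 2 of the 27 were positive and the median was -0.11, with the median of all genes at -0.19. Leaving out 1 library gave medians of 0.04 to 0.10 in HSC, 0.06 to 0.14 in preMegE and -0.03 to 0.12 in preCFU-E, the negative one without preCFU-E WT 3. The 95% confidence intervals bound what these libraries allow: over all 27 genes they ran from -0.63 to 0.53 in HSC, -0.38 to 0.66 in preMegE and -0.70 to 0.54 in preCFU-E, the widest being those of Rps12.

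**Figure D5:**
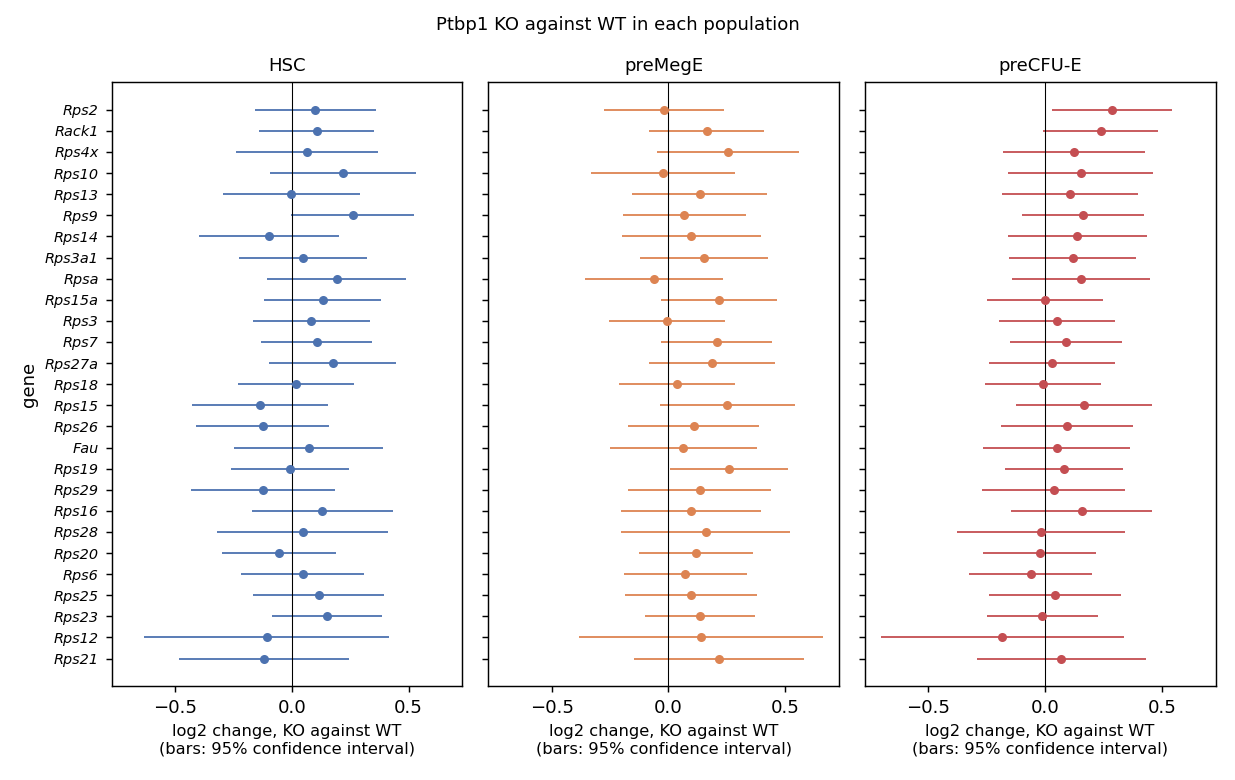
Log2 change of each gene in KO against WT libraries of HSC, preMegE and preCFU-E, with 95% confidence intervals, genes ordered as in the plot of levels. The points lie between -0.18 and 0.29, and the intervals of all but 2 cross 0: Rps19 in preMegE and Rps2 in preCFU-E.

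The 2 genes with an unadjusted p under 0.05 were Rps19 in preMegE and Rps2 in preCFU-E. Rps19 was at 262, 242 and 241 CPM in WT and 302, 266 and 323 in KO preMegE, without overlap (0.26, 95% interval 0.01 to 0.51, adjusted p 1.00 over all genes). Rps2 was at 1279, 1624 and 1340.3 CPM in WT and 1649, 1771 and 1754 in KO preCFU-E (0.29, 95% interval 0.03 to 0.54, adjusted p 1.00). Neither passes the correction. Rps9 had the largest value in HSC, at 152, 150.0 and 154 CPM in WT and 213, 163 and 169 in KO (0.26, 95% interval -0.00 to 0.52, adjusted p 0.373). Every KO library lay above every WT library for 2 genes in HSC (Rps9 and Rack1), 3 in preMegE (Rps7, Rps15a and Rps19) and 3 in preCFU-E (Rps2, Rps16 and Rack1). Over all genes this was so for 5.80%, 6.02% and 6.62%, which is 1 or 2 genes in a set of 27. In no gene of the set did every KO library lie below every WT library. The share of all genes in that direction was not counted, so no direction is read from this.

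The KO effect was also compared between populations. EdgeR called 0 of 27 genes for the difference of preMegE minus HSC (0.0325% of all genes), 0 for preCFU-E minus HSC (0.0510%) and 0 for preCFU-E minus preMegE (0.00%), with none at an unadjusted p under 0.05. The largest values were those of Rps15 for preMegE minus HSC (0.39, 95% interval -0.02 to 0.80) and preCFU-E minus HSC (0.30, -0.11 to 0.71), which share the HSC libraries, and of Rps12 for preCFU-E minus preMegE (-0.32, -1.06 to 0.42). Transcript usage of the 16 testable genes was not called in KO HSC (4.36% of all genes), KO preMegE (0.139%) or KO preCFU-E (0.235%), with 0 at an unadjusted p under 0.05 in each. Without HSC WT 1, 1 gene, Rps19, was called in HSC.

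Genes around the set gave no call either. None of the 8 small-subunit genes outside it, the 47 large-subunit genes, the 55 assembly factors, the 18 regulators of TOP messenger RNAs or the 17 genes of ubiquitylation and rescue was called for a KO effect in any population. The large-subunit genes had medians of 0.11 in HSC and 0.11 in preMegE, and the assembly factors 0.14 and -0.14. Marker lists of other cells differed between populations, and some between WT and KO. The 13 erythroid markers summed to 408 to 489 CPM in WT and 263 to 362 in KO HSC, 2023 to 2581 in preMegE and 9323 to 11778 in preCFU-E, with none of them at 0 in all libraries of a group. Car1 and Car2 made up most of the sum in WT preCFU-E, with means of 5045 and 2824 CPM. The globin genes Hba-a1, Hbb-bt and Hbb-bs went the other way. Their means were 4.28, 16.3 and 16.5 CPM in WT HSC and 1.19, 2.23 and 1.86 in WT preCFU-E. The 5 T and NK cell markers summed to 6.15 to 22.1 CPM in HSC, 203 to 275 in preMegE, nearly all of it Nkg7, and 23.4 to 44.5 in preCFU-E. The 9 granulocyte and monocyte markers summed to 27.8 to 51.0 CPM in HSC, 42.2 to 74.2 in preMegE and 1.61 to 17.3 in preCFU-E, and the 7 macrophage markers to at most 16.6 anywhere. The 6 megakaryocyte markers summed to 132 to 153 CPM in WT and 67.7 to 112 in KO preMegE, and the 8 HSC markers to 1705 to 1812 in WT and 1309 to 1579 in KO HSC. The 6 B cell markers summed to 11.1 to 17.3 CPM in WT and 10.8 to 43.7 in KO preMegE. Among them, Ighm was at 0.821, 28.6 and 4.30 CPM in KO preMegE 1, 2 and 3. Itga2b, the gene of CD41, was at 37.5 to 92.02 CPM in preMegE although these cells were sorted without CD41. Their part in the changes of the 27 genes was not tested. In preMegE 49 of the 55 assembly factors had a negative value and in HSC 12 of the 55, with no call in either. Of all genes tested, 51.3% were positive in preMegE and 51% in HSC. These signs were not tested as a set.

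For all 27 genes, both group means of HSC lay below those of preMegE, and these below those of preCFU-E. The order of WT and KO within a population differed between genes: the commonest order of the 6 groups, with WT below KO in each population, was shared by 10 genes, and 7 others differed from it in HSC only. The highest group was KO preCFU-E for 21 genes and WT preCFU-E for 6, and the lowest was WT HSC for 18 and KO HSC for 9. Which preCFU-E group is higher depends on the scaling, as given above for library size alone. For Rps2 the means were 105 ± 3.59, 112 ± 12.6, 803 ± 74.00, 814 ± 99.2, 1414 ± 185 and 1725 ± 65.9 CPM (SD, n = 3) in WT HSC, KO HSC, KO preMegE, WT preMegE, WT preCFU-E and KO preCFU-E. Its neighbours overlap between the 2 HSC groups and between the 2 preMegE groups. Rack1 had the most separated neighbours, 4 of 5, its WT and KO preMegE libraries being the pair that overlaps. Rps21 had none. In KO libraries the first step had a median of 1.62 and the second of 0.35 in group means, against 1.60 and 0.45 in WT libraries, with Rps2 the largest (2.84 and 1.10) and Rps21 (0.52) and Rps7 (0.10) the smallest. The difference between the KO and WT steps is that of the KO effects given above.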

How the data were processed

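Total RNA of 18 libraries was analysed, 3 in each of 6 groups. RNA was amplified with Ovation RNA-Seq V2 before library preparation, per the labels' protocols. Each deposited file gives per transcript an estimated count and TPM, from Salmon 0.12.0 on builds mm10 and GRCm38.p6, per the submitters' processing notes. Salmon's settings are not stated there. Estimated counts were summed per gene with GENCODE release M21 (136176 of 136288 transcripts matched) and rounded.

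Genes were tested with edgeR 4.0.16 in R 4.3.3 (quasi-likelihood, robust, TMM factors, filterByExpr), 1 fit of all libraries with 12 residual degrees of freedom. P-values were adjusted over 21565 genes by Benjamini-Hochberg, and called under 0.05; intervals cover 95%. The series' design text calls the replicates biological but does not say whether they came from single animals or pools. Transcript usage was tested with diffSpliceDGE for transcripts at 5% or more of their gene's TPM. Both tests were run on simulated data, drawn with the same means in every group apart from planted changes. For usage a single spread was set for all transcripts, so that run does not measure error rates in these libraries. The TPM of the authors' files served for levels within a library. Copies were found with blastn. Start sequences come from RefSeq.

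The 27 genes, the lists and the tests were chosen with earlier results of these data known, and some of the lists overlap. Every library's value is given for the 3 largest and 3 smallest changes of each WT step, the 2 highest and 2 lowest genes by TPM in each WT population, the gene with the largest spread, and genes called for usage. Genes of the lists of related function were to be named if called for a KO effect, and none was. Alternatives were DESeq2 1.42.0, limma-voom 3.58.1, other scalings, filters and ways of counting, a replicate block, and leaving out each library.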

Additional observations from a re-analysis of the deposited data

How the results depend on the processing

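Of 358 counts of called genes recomputed under the alternatives, 339 stayed within 1.5 times the reported count. Most of the others were at the step from preMegE to preCFU-E, with 20 calls: 1 with library size alone, 7 without a filter, 7 at a mean of at least 50 counts, 12 with length-scaled counts, 5 with protein-coding transcripts alone and 6 to 23 without 1 library. With protein-coding transcripts alone, 1 gene was called for a KO effect in HSC: Rps23, at 0.47 (log2, edgeR adjusted p 0.0473). Usage in KO HSC gave 0 to 1 calls without 1 library. The cause of these changes was not tested.

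Among genes given with every library's value, signs reversed for 4, none of them called. With library size alone 9 of the 27 genes were negative at the second step, of which Rps6, Rps15a and Rps20 were called with TMM factors. Rps21 at the first step was at -0.11 with library size alone, -0.21 at a mean of at least 50 counts and -0.28 with protein-coding transcripts alone. At the second step the same 3 settings gave -0.25, -0.10 and -0.12 for Rps14, -0.17, -0.012 and -0.033 for Rps3a1, and -0.16, -0.0014 and -0.023 for Rps7. Rps14 ranged from -0.045 (without preCFU-E WT 1) to 0.22 (without preCFU-E WT 3) when 1 library was left out. Medians of the set moved by more than 1 SD in 31 of 248 recomputations.

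The deviations of same-numbered WT and KO libraries correlated at -0.04 to 0.14. In preMegE these values were 0.143, 0.012 and 0.086, against -0.123 to 0.075 for WT and KO libraries of different numbers. They do not settle whether replicate numbers pair the libraries. With the replicate number as a block, 8 genes were called at the second step and 2 for usage at the first (Rps18 and Rps19).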
